A study of Mus musculus with 45 samples.

Results

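The late step of liver regrowth in Uhrf1hepKO mice, between 7 days and 4 weeks after partial hepatectomy, is described here from RNA sequencing of whole liver. The 5 libraries are all KO columns of those times in the deposited count table, 3 at 4 weeks and 2 at 7 days (replicates 1 and 3), out of 45 libraries in the series. KO stands for Uhrf1hepKO, by its name a knockout of Uhrf1 in hepatocytes, and WT for wild type. Every group used here came from C57Bl/6 mice on a normal diet that were 8 to 12 weeks old at surgery, and liver was taken at 4 weeks or 7 days after it. KO and WT at baseline and WT at the same 2 times, with 3 libraries each, serve only to show where the KO step differs. The baseline titles name no time after surgery, while the descriptions and column names of these libraries carry a 40 h prefix. The sources used here do not state the Cre driver, the hour at which tissue was taken or whether each library is a separate animal. The p-values set each difference against a spread between libraries that is estimated over all 45, and some of that spread may be technical.

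UHRF1 recognises hemimethylated DNA behind the replication fork and recruits the maintenance methyltransferase DNMT1. Partial hepatectomy drives resting hepatocytes into the cell cycle, after an acute phase and cytokine response, and the lost mass is largely restored within days to weeks in mice. In wild-type mice hepatocyte division has largely ceased by the end of the first week.

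Uhrf1 (chromosome 17, 56303321 to 56323486, plus strand, mm10) was near the detection limit in KO at both times and in WT at 4 weeks. Its level was 0.285, 0.223 and 0.317 CPM (counts scaled to library size) in KO at 4 weeks and 0.72 and 0.216 CPM in KO at 7 days, against 0.353 to 0.452 CPM in WT at 4 weeks and 0.543 to 5.49 CPM in WT at 7 days. The KO times overlapped (log2 −0.76 ± 1.18 SE, edgeR adjusted p = 0.877), and at 4 weeks Uhrf1 is too low in both genotypes to check the labels. Rhox5, a homeobox gene that DNA methylation keeps silent in somatic tissue, was chosen from earlier results of these data and separates the genotypes. It stood at 15.2, 8.63 and 17.1 CPM in KO at 4 weeks and at 17 and 11.8 CPM in KO at 7 days, while no WT library of these times exceeded 0.255 CPM. Between the 2 KO times it overlapped (log2 −0.07 ± 0.5, edgeR adjusted p = 0.978).

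Total counts per library were 14063088 to 20287871 at 4 weeks and 14799699 to 15520396 at 7 days. Albumin took 7.04% to 7.63% of counts at 4 weeks and 6.73% to 8.79% at 7 days, and all 27 hepatocyte core genes passed the filter on low counts. Over the genes tested, libraries of 4 weeks correlated with each other at r = 0.987 to 0.990, those of 7 days at 0.984, and libraries of different times at 0.978 to 0.984. The 2 libraries of 7 days were thus no closer to each other than the closest pair across the times.

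Of 14090 genes tested, edgeR called 29 between 4 weeks and 7 days (adjusted p under 0.05), which is 0.206% of all genes tested. Of these, 8 rose (0.0568%) and 21 fell (0.149%). At an unadjusted p under 0.05 there were 1411 genes (10.0%), 564 higher at 4 weeks (4.00%) and 847 lower (6.01%). The libraries of the 2 times did not overlap for 2117 genes that were higher (15.0%) and 2479 that were lower at 4 weeks (17.6%). A lack of overlap is thus common here, and for a gene without a call it is given as a description only. The number of calls rests on single libraries. Without replicate 1, 2 or 3 of 4 weeks it was 17, 4 or 1, and of the 29 genes 12, 4 and 1 kept their call. Without replicate 1 or 3 of 7 days, which leaves 1 library assumed to vary like the other groups, it was 10 or 2, and 8 and 2 of the 29 genes kept their call. Without the 96 h libraries, which only share the estimate of spread, 7 genes were called. No called gene changed direction under the alternatives run. By gene, calls were kept under 14 (Plxnb1) to 1 (Tmem30b) of 16 alternatives, with 5 for Rhbdf1 and 2 each for Fadd and Zmym1.

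**Figure D1:**
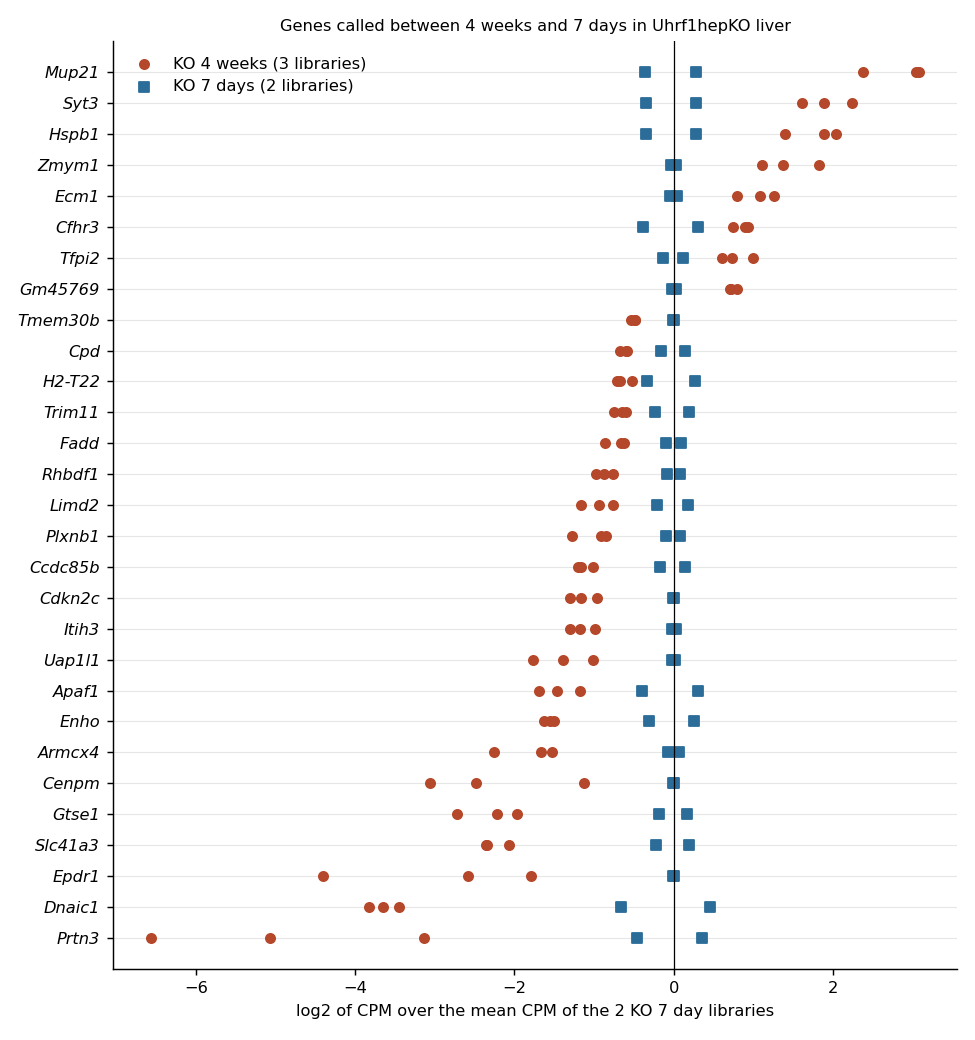
Each of the 29 called genes in each KO library, on the x axis as the log2 of its CPM over the mean CPM of the 2 libraries of 7 days. Circles are the 3 libraries of 4 weeks and squares the 2 of 7 days. For all 29 genes the circles and squares do not overlap, from Prtn3 with a log2 fold change of −4.25 to Mup21 at 2.87.

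Gtse1, a microtubule-binding protein of dividing cells that binds p53 (chromosome 15, 85859745 to 85876573, plus strand), stood at 0.627, 0.372 and 0.529 CPM at 4 weeks and at 2.75 and 2.16 CPM at 7 days. It fell by 2.23 on the log2 scale (± 0.43 SE, edgeR adjusted p = 0.0212), on 5 to 11 counts per library at 4 weeks against 30 and 42 at 7 days. Cdkn2c, an inhibitor of the G1 cyclin-dependent kinases (chromosome 4, 109660876 to 109667189, minus strand), had 4.79, 4.17 and 3.81 CPM at 4 weeks and 9.43 and 9.3 CPM at 7 days. The 2 times were well apart and the replicates tight (log2 −1.14 ± 0.23, edgeR adjusted p = 0.0273). Cenpm, a centromere protein, had 2.57, 0.669 and 1 CPM at 4 weeks and 5.63 and 5.55 CPM at 7 days (log2 −1.95 ± 0.42, edgeR adjusted p = 0.0404). At baseline KO livers had levels beside those of 4 weeks, with 0.154 to 0.68 CPM for Gtse1, 2.81 to 4.2 for Cdkn2c and 1.54 to 2.25 for Cenpm.

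Apaf1, the scaffold of the apoptosome that activates caspases (chromosome 10, 90989311 to 91082770, minus strand), had the smallest p of all genes. It stood at 1.14, 1.34 and 1.64 CPM at 4 weeks and at 4.58 and 2.81 CPM at 7 days (log2 −1.42 ± 0.23, edgeR adjusted p = 0.00272). Apaf1 kept its call under 11 of 16 alternatives, with log2 fold changes from −1.72 to −0.19. Here the level at 4 weeks was also under KO at baseline, which had 2.35 to 2.78 CPM. Fadd, the adaptor that couples death receptors to caspases, had 7.19, 6.25 and 7.4 CPM at 4 weeks and 10.6 and 12.1 CPM at 7 days, and fell by 0.71 (± 0.16, edgeR adjusted p = 0.0479). A noncoding gene on the opposite strand covers most of Fadd, and the counting is not stated to use strand.

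Among 20 tested p53 targets and cell cycle inhibitors, Gtse1 and Cdkn2c fell, none rose, and 7 were lower at an unadjusted p under 0.05, against 6.01% of all genes. Without replicate 1 of 7 days 3 were lower, and 4 of the 5 fits without 1 library called none of the list. The median log2 fold change was −0.2, and that of all genes tested −0.01. Phlda3, a p53 target, had 0.856, 0.595 and 0.899 CPM at 4 weeks and 3.86 and 1.01 CPM at 7 days (log2 −1.62 ± 0.49, edgeR adjusted p = 0.173). Its high value is that of replicate 1 of 7 days, and Eda2r, another p53 target, shared that pattern with 3.34 CPM there and 0.866 CPM in replicate 3. Of 47 genes of DNA replication and S phase none was called, and 8 were lower at an unadjusted p under 0.05, with a median of −0.35. Without replicate 1 of 7 days 2 were lower and the median was −0.23. Ccne1, the G1/S cyclin, stood at 1.03, 1.12 and 0.476 CPM at 4 weeks and at 3.14 and 3.53 CPM at 7 days (log2 −1.96 ± 0.61, edgeR adjusted p = 0.198). Of 40 genes of G2 and mitosis none was called either, with 3 lower at an unadjusted p under 0.05 and a median of −0.52. That median depends on the libraries, at −0.21 without replicate 1 of 7 days and −0.83 without replicate 3. Against KO at baseline the mitotic median was 1 at 4 weeks and 1.56 at 7 days, so the list's median was above baseline at both times. Ccnd1, cyclin D1, from the list of YAP targets, had 23.2, 27.6 and 18.8 CPM at 4 weeks and 106 and 71 CPM at 7 days. The times were far apart, but it was not called (log2 −1.94 ± 0.54, edgeR adjusted p = 0.144).

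Acute phase proteins are made by hepatocytes under interleukin signalling and secreted into plasma, and 26 of their 28 genes had a negative log2 fold change at 4 weeks. Itih3, a heavy chain of the inter-alpha-trypsin inhibitor family (chromosome 14, 30908572 to 30923760, minus strand), stood at 891, 781 and 721 CPM at 4 weeks and at 1800 and 1740 CPM at 7 days. It fell by 1.15 on the log2 scale (± 0.26, edgeR adjusted p = 0.0479) and kept its call under 5 of 16 alternatives. Of the 28 tested members edgeR called Itih3 alone, while DESeq2 called 3, all lower. Without a filter on low counts, or without the 96 h libraries, edgeR called none. In the main fit 10 of the 28 were lower at an unadjusted p under 0.05, against 6.01% of all genes. None was higher, and the median was −0.88. Fgl1, a liver-derived fibrinogen-like protein, had 432, 269 and 139 CPM at 4 weeks and 734 and 1150 CPM at 7 days (log2 −1.75 ± 0.41, edgeR adjusted p = 0.0589). Hpx, the plasma carrier of free haem, had 6590, 5740 and 4720 CPM at 4 weeks and 11500 and 13300 CPM at 7 days (log2 −1.13 ± 0.33, edgeR adjusted p = 0.16). Lcn2, a carrier of iron-binding siderophores, had 43.1, 4.91 and 3.38 CPM at 4 weeks and 148 and 252 CPM at 7 days (log2 −3.54 ± 1.03, edgeR adjusted p = 0.17).

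Replicate 1 stood apart from the other 4 week libraries in the most inducible members. Saa1, a serum amyloid A gene whose near-identical copy Saa2 can share its reads, had 1050 CPM there and 76.3 and 36.6 CPM in replicates 2 and 3, against 949 and 1720 CPM at 7 days, so the times overlapped. Without that library 13 of the 28 acute phase genes were lower at an unadjusted p under 0.05, with a median of −1.05. Without replicate 3 of 7 days there were 5, with a median of −0.66. Crp, the C-reactive protein gene, which is weakly inducible in mice, went the other way, with 475, 533 and 495 CPM at 4 weeks and 385 and 425 CPM at 7 days (log2 0.31 ± 0.2, edgeR adjusted p = 0.618). Against KO at baseline the median of the list was 0.18 at 4 weeks and 0.9 at 7 days.

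Prtn3, a serine protease known from neutrophil granules (chromosome 10, 79874476 to 79883174, plus strand), had the largest fall of all called genes. Its level was 1.71, 0.446 and 0.159 CPM at 4 weeks and 10.9 and 19.2 CPM at 7 days, from 3 to 30 counts and from 167 and 266 counts. It fell by 4.25 on the log2 scale (± 0.72, edgeR adjusted p = 0.00726). Further granule genes of the monocyte and neutrophil list were near 0, with 1 count of Mpo and 5 counts of Elane over all 5 libraries and 2 counts each of Camp and Ltf. Plppr3 overlaps Prtn3 by 159 bases on the other strand and was at a mean of 0.839 CPM at 4 weeks and 0.789 CPM at 7 days (log2 0.088, edgeR adjusted p = 0.973). Prtn3 was the 1 called gene of 19 tested in that list, and 0.149% of all genes were called lower. The list's median was −0.56, at −0.23 without replicate 1 of 7 days and −0.8 without replicate 3. Its summed level was 52.6 to 59 CPM at 4 weeks and 75.2 and 91.1 CPM at 7 days. That sum includes the 10.9 and 19.2 CPM of Prtn3 at 7 days, and the other members were not summed alone. S100a9, a calcium-binding protein of myeloid cells, had 0.228, 0.372 and 0.37 CPM at 4 weeks and 0.72 and 1.66 CPM at 7 days (log2 −1.85 ± 0.81, edgeR adjusted p = 0.418).

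Of 20 markers of Kupffer cells, the resident macrophages of liver sinusoids, edgeR called none and none reached an unadjusted p under 0.05. In a fit of only the groups compared 13 of 19 were lower at that p and 1 was called, and 7 of 20 with the replicate block within genotype. Their median was −0.58, and their summed level was 617 to 664 CPM at 4 weeks and 702 and 811 CPM at 7 days. Clec4f, a Kupffer cell lectin, had 37.5, 33.4 and 35.6 CPM at 4 weeks and 57.4 and 51.3 CPM at 7 days, without overlap (log2 −0.61 ± 0.49, edgeR adjusted p = 0.706). In whole liver, fewer cells of a type and less RNA per cell cannot be told apart. Of 7 erythroid markers 3 were lower at an unadjusted p under 0.05, or 0 without replicate 3 of 7 days, with a median of −0.74. Their summed level overlapped, at 235 to 411 CPM at 4 weeks and 390 and 395 CPM at 7 days. Over all genes tested 6.01% were lower at an unadjusted p under 0.05. Lymphocyte, endothelial and cholangiocyte lists held no call by edgeR or DESeq2, and their medians were 0.11, −0.05 and −0.08. The summed level of the lymphocyte list was 60.7 to 62.9 CPM at 4 weeks and 41 and 42.4 CPM at 7 days, without overlap. Those of the endothelial and cholangiocyte lists overlapped. The endothelial median was 0.21 with 20 of 24 genes positive without replicate 1 of 7 days, and −0.28 with 0 positive without replicate 3. The cholangiocyte median was 0.25 and −0.15 under the same omissions. The part of blood and immune cells in the lower acute phase values was not tested.

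Cytosolic heat shock genes, the chaperones that heat shock factor switches on when proteins misfold, had positive log2 fold changes at 4 weeks throughout the list. Hspb1, a small heat shock protein (chromosome 5, 135887919 to 135889563, plus strand), had 12.5, 17.6 and 19.6 CPM at 4 weeks and 3.73 and 5.77 CPM at 7 days. It rose by 1.8 on the log2 scale (± 0.37, edgeR adjusted p = 0.0273) and was the 1 member of 21 that edgeR called, while DESeq2 called 5. All 21 had a positive log2 fold change, with a median of 0.62, and 15 of them reached an unadjusted p under 0.05, against 4.00% of all genes in that direction. The count of 15 held without any 1 library except replicate 1 of 7 days, without which it was 9. The summed level of the list was 4250 to 4920 CPM at 4 weeks and 2760 and 3110 CPM at 7 days, so the libraries did not overlap.

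Other large differences were in chaperones of the HSP70 and HSP90 systems. Hsph1, an HSP70 exchange factor, had 73.6, 117 and 105 CPM at 4 weeks and 26.4 and 29.5 CPM at 7 days (log2 1.81 ± 0.46, edgeR adjusted p = 0.0867). Hspa1b, an inducible HSP70, had 47.9, 60.2 and 27.8 CPM at 4 weeks and 4.78 and 15.2 CPM at 7 days (log2 2.18 ± 0.73, edgeR adjusted p = 0.246); its neighbour Hspa1a is nearly identical and can share its reads. Hsp90aa1, the inducible HSP90, had 235, 258 and 290 CPM at 4 weeks and 109 and 124 CPM at 7 days (log2 1.16 ± 0.33, edgeR adjusted p = 0.145). The times did not overlap for any of these 3 genes, as for 15.0% of all genes in that direction, and edgeR called none of them. Dnajb1, an HSP70 co-chaperone, had 36.2, 51.5 and 35.1 CPM at 4 weeks and 17.2 and 21.3 CPM at 7 days (log2 1.09 ± 0.29, edgeR adjusted p = 0.115). In KO at baseline Hspb1 stood at 2.88 to 5.44 CPM and Hsph1 at 32.4 to 81.3 CPM, so for Hsph1 a baseline library reached into the range of 4 weeks.

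Heat shock factor is known to bind inverted repeats of nGAAn, and these repeats were looked for as the letters GAANNTTC or TTCNNGAA in the 250 bases before each RefSeq start (GRCm38.p6). Either motif equals its own reverse complement, so 1 search covers both strands, and the 2 can overlap. Of 22 promoter windows for 16 members of the list, 10 held a match (45.5%), against 12.8% of 32851 windows of the same length. By gene 9 of 16 had a match, and windows share sequence, since the pair of Hsph1 windows hold the same site and Hspd1 and Hspe1 face each other over shared bases. Dnajb1, Bag3, Chordc1 and Stip1 had none, with log2 fold changes of 1.09, 0.99, 0.87 and 0.76. The 150 bases before the start are shown for 3 genes with a match and large differences, with matches in capitals, 5′ to 3′ along the gene's strand. A match describes the letters and was not tested as a site.
Hspb1, chr5:135887769-135887918, plus strand: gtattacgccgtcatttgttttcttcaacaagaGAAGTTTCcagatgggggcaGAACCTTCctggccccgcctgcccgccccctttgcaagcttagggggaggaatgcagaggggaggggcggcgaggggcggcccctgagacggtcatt
Hsph1, chr5:149636316-149636465, minus strand: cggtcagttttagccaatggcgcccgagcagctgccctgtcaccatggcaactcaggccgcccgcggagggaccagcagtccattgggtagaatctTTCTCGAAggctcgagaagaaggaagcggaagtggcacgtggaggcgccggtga
Hspa1b, chr17:34959239-34959388, minus strand: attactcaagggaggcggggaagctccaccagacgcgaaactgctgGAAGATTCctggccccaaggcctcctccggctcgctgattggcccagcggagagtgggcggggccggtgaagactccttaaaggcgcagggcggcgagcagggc

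**Figure D2:**
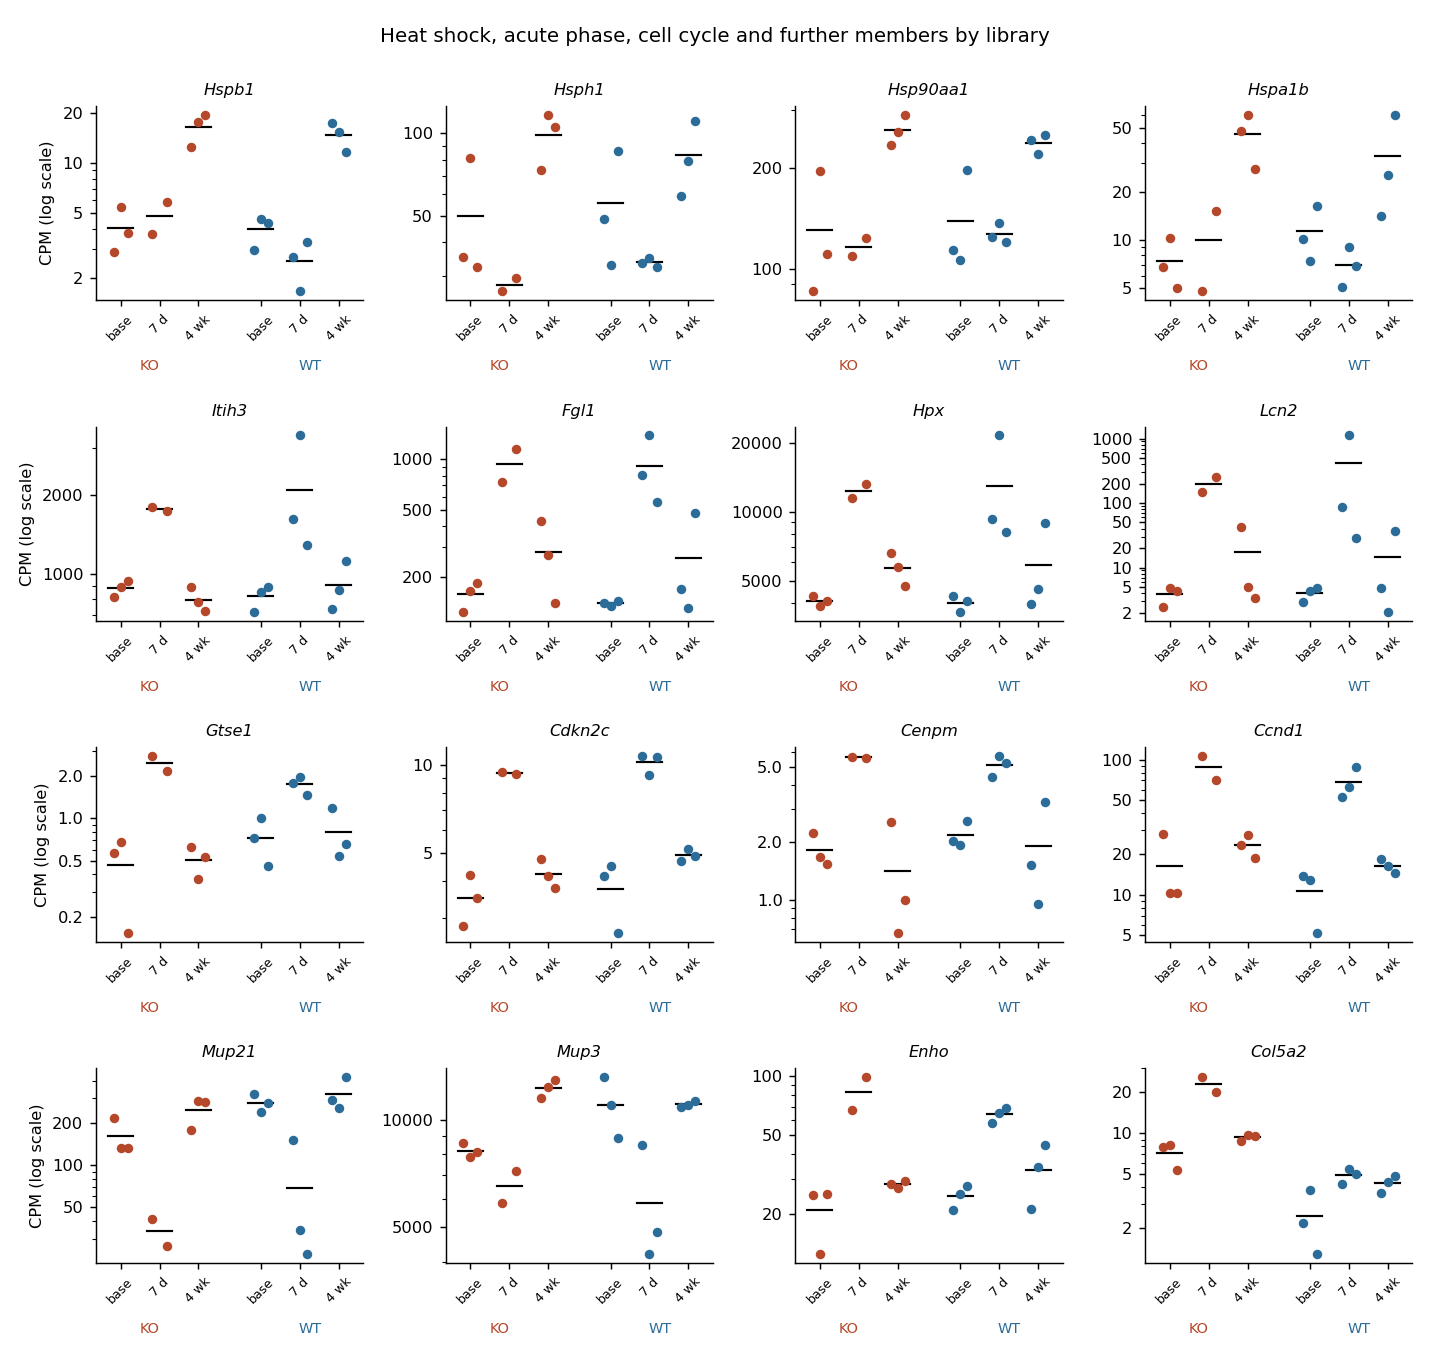
CPM on a log axis for 16 genes in each library of baseline (base), 7 days (7 d) and 4 weeks (4 wk), KO on the left and WT on the right of each panel, with a bar at the group mean. In both genotypes Hspb1 is high at 4 weeks, and in KO Itih3, Gtse1 and Enho are high at 7 days and near their baseline level at 4 weeks.

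Chaperones of the endoplasmic reticulum and genes of its stress response had a median of 0.32. Of 24 edgeR called none, and 5 were higher at an unadjusted p under 0.05, against 4.00% of all genes. That count was 0 without replicate 1 of 7 days, 1 without replicate 2 and 10 without replicate 1 of 4 weeks, and 14 in a fit of only the groups compared. The 4.00% is the share in the main fit, and that in the fit of only the groups compared is not given here. Hspa5, the main chaperone of that compartment, had 1100, 1340 and 1290 CPM at 4 weeks and 646 and 836 CPM at 7 days, without overlap (log2 0.75 ± 0.27, edgeR adjusted p = 0.286).

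No clock gene was called by edgeR. The mammalian clock alternates between an arm that includes Arntl, Npas2 and Cry1 and an arm with Dbp, Per3 and Tef, which peak at nearly opposite times of day in mouse liver. Arntl, which encodes BMAL1, had 13.7, 5.28 and 13.9 CPM at 4 weeks and 3.73 and 1.44 CPM at 7 days (log2 2.08 ± 0.95, edgeR adjusted p = 0.453). Per3 had 3.71, 7.74 and 5.5 CPM at 4 weeks and 13.9 and 27.6 CPM at 7 days (log2 −1.89 ± 0.59, edgeR adjusted p = 0.207). Of 6 genes of the first arm 2 were higher at an unadjusted p under 0.05, against 4.00% of all genes. Of 11 of the second 4 were lower at that p, against 6.01% of all genes. These counts were 0 and 0 without replicate 3 of 7 days and 0 and 1 without replicate 1 of 4 weeks. The mean log2 CPM of the first arm minus that of the second was 0.32, −1.25 and −0.17 in KO at 4 weeks and −1.98 and −2.55 in KO at 7 days, without overlap. In WT it was 2.32, 0.83 and 0.76 at 4 weeks and −2.02, −1.92 and −2.78 at 7 days. Several heat shock genes, Hsph1 among them, are known to follow the time of day in mouse liver, and the part of the hour of collection in the heat shock, clock and metabolic values was not tested.

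**Figure D3:**
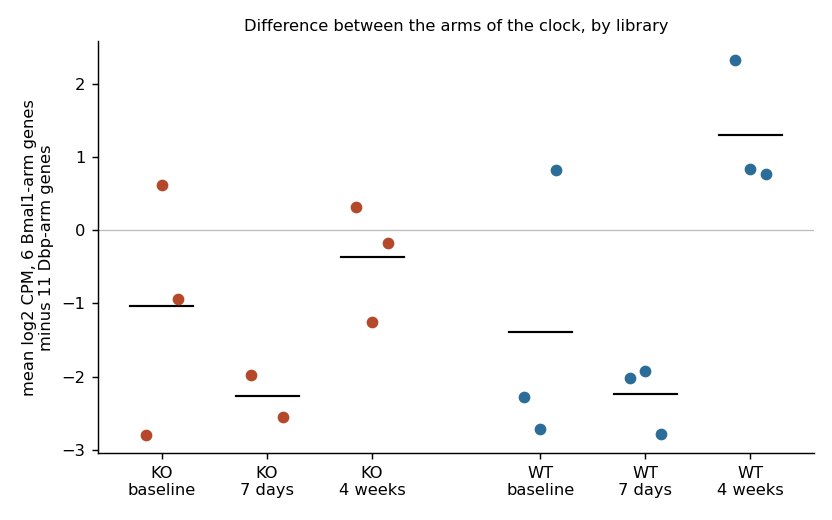
Mean log2 CPM of 6 genes of the Bmal1 arm minus that of 11 genes of the Dbp arm of the clock, by library, with a bar at the group mean. In KO the libraries of 4 weeks lie between −1.25 and 0.32, above those of 7 days, at −2.55 and −1.98, and KO at baseline spans −2.79 to 0.62.

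Genes of adult male liver, many of them under pulsatile growth hormone, had mostly positive log2 fold changes, 20 of 26 tested. Mup21, a major urinary protein (chromosome 4, 62147932 to 62150863, minus strand), had 177, 288 and 280 CPM at 4 weeks and 41.4 and 26.5 CPM at 7 days. It rose by 2.87 on the log2 scale (± 0.58, edgeR adjusted p = 0.0273), to levels beside the 133 to 217 CPM of KO at baseline. Of the 26 genes edgeR called Mup21 alone, DESeq2 called 2 higher, a fit of only the groups compared 4 higher, and limma on FPKM 1 higher and 2 lower. By edgeR 7 were higher and none lower at an unadjusted p under 0.05, against 4.00% and 6.01% of all genes. The median was 0.3. Mup3, of the same family, had 11500, 12400 and 12900 CPM at 4 weeks and 5830 and 7190 CPM at 7 days, without overlap (log2 0.91 ± 0.22, edgeR adjusted p = 0.0648). Elovl3, an elongase of very long fatty acids, had 431, 327 and 496 CPM at 4 weeks and 147 and 59.9 CPM at 7 days (log2 2.02 ± 0.98, edgeR adjusted p = 0.493). Mup genes are near-identical, so their counts are uncertain. In the deposited FPKM table Mup1 and Mup12 are listed at 0 in the 3 libraries of 4 weeks, while their counts gave log2 0.69 and 1.71 with no call.

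In the metabolic lists edgeR made no call, while DESeq2 called 1 higher gene each among cytochrome P450 genes and glucose metabolism. Over all genes tested 4.00% were higher and 6.01% lower at an unadjusted p under 0.05. Of 38 cytochrome P450 and drug metabolism genes 4 were higher at that p and none was lower. Cyp2j5, an epoxygenase, had 678, 681 and 728 CPM at 4 weeks and 482 and 493 CPM at 7 days, without overlap (log2 0.51 ± 0.13, edgeR adjusted p = 0.0992). Of 24 cholesterol synthesis genes 6 were lower at an unadjusted p under 0.05, with a median of −0.42. Without replicate 3 of 7 days 1 was lower and the median was 0.02. The 17 urea cycle and periportal genes held no member at an unadjusted p under 0.05, and 20 genes of glucose and glycogen metabolism held 2 that were higher and 1 that was lower. Ppp1r3b, which targets protein phosphatase to glycogen, had 137, 205 and 163 CPM at 4 weeks and 55.3 and 47.2 CPM at 7 days (log2 1.71 ± 0.43, edgeR adjusted p = 0.0867). The times did not overlap, and KO at baseline was higher still, at 301 to 626 CPM. Fatty acid synthesis had 2 of 22 genes higher at an unadjusted p under 0.05, fatty acid oxidation 2 of 24 and bile acid genes 2 of 20, the last with 2 lower.

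Among 16 pericentral genes, expressed by hepatocytes around the central vein, 3 were lower at an unadjusted p under 0.05. Over all genes tested 6.01% were lower and 4.00% higher at that p. Slc13a3, a dicarboxylate transporter, had 15, 15.2 and 13.1 CPM at 4 weeks and 28.1 and 40.2 CPM at 7 days (log2 −1.24 ± 0.3, edgeR adjusted p = 0.0648). Prox1, a transcription factor of hepatocytes, had 40.4, 58.8 and 40.2 CPM at 4 weeks and 94.7 and 89.4 CPM at 7 days (log2 −0.99 ± 0.23, edgeR adjusted p = 0.0589). The times were apart for both genes, and edgeR called neither, while DESeq2 called 1 lower gene in each of their lists. The 27 hepatocyte core genes that include Prox1 had a median of −0.01, with 2 higher and 2 lower at an unadjusted p under 0.05.

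Enho encodes adropin, a secreted peptide linked to energy balance (chromosome 4, 41638144 to 41640324, minus strand). It had 28.3, 27 and 29.3 CPM at 4 weeks and 67.1 and 99.2 CPM at 7 days, and fell by 1.56 (± 0.32, edgeR adjusted p = 0.0273). Dnaic1, a dynein chain of motile cilia, lies tail to tail with Enho, with an overlap of 15 bases, and fell with it. Dnaic1 had 4 to 6 counts per library at 4 weeks and 36 and 71 counts at 7 days (log2 −3.6 ± 0.73, edgeR adjusted p = 0.0273). Without a stated strand setting, reads of these 2 genes near their shared end cannot be told apart. The same limit holds for Gm12406, which overlaps Enho by 947 bases on the other strand.

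**Figure D4:**
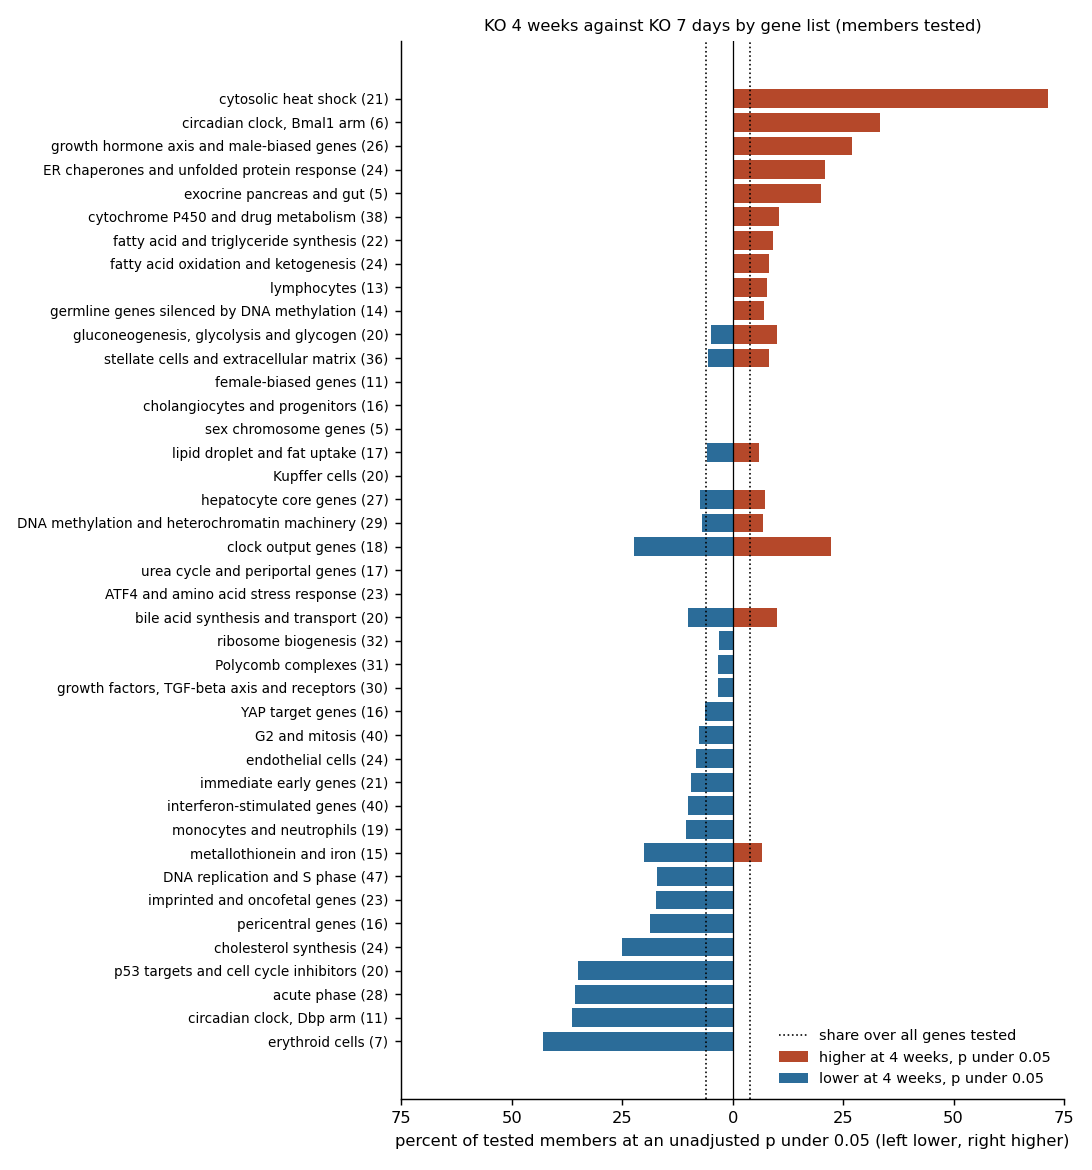
Percent of the tested members of each of 41 gene lists at an unadjusted p under 0.05 in KO at 4 weeks against KO at 7 days, higher to the right and lower to the left, with the number tested in brackets and dotted lines at the shares over all genes tested, 4.00% higher and 6.01% lower. The heat shock list reaches farthest to the right, with 15 of 21. To the left the small erythroid list reaches farthest, with 3 of 7, and acute phase genes have 10 of 28.

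Ecm1, a secreted matrix glycoprotein (chromosome 3, 95734147 to 95739569, minus strand), had 57.7, 71 and 79.8 CPM at 4 weeks and 32.3 and 34.4 CPM at 7 days. It rose by 1.06 (± 0.2, edgeR adjusted p = 0.0111), and both times were under the 87.3 to 131 CPM of KO at baseline. Tfpi2, a secreted inhibitor of serine proteases, had 96.5, 88.7 and 116 CPM at 4 weeks and 63.3 and 53 CPM at 7 days (log2 0.79 ± 0.14, edgeR adjusted p = 0.00726). Plxnb1, a plexin that serves as semaphorin receptor (chromosome 9, 109095389 to 109119917, plus strand), had 48, 45.7 and 35.7 CPM at 4 weeks and 91.4 and 80.9 CPM at 7 days. It fell by 1 on the log2 scale (± 0.16, edgeR adjusted p = 0.00272) and kept its call under 14 of 16 alternatives, more than any other gene. KO at baseline had 50 to 53.5 CPM of Plxnb1, beside the level of 4 weeks. Gm7628 overlaps Plxnb1 on the other strand and was not called.

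Of 36 stellate cell and matrix genes edgeR called Ecm1 alone and DESeq2 1 higher and 1 lower, with a median of 0.09. Its direction rests on the libraries of 7 days, at 0.73 with 32 of 36 positive without replicate 1 and −0.28 with 13 positive without replicate 3. Col5a2, a fibrillar collagen chain known from earlier results of these data, had 8.78, 9.67 and 9.52 CPM at 4 weeks and 26 and 20.1 CPM at 7 days (log2 −1.3 ± 0.32, edgeR adjusted p = 0.0648). Dcn, the stellate cell proteoglycan decorin, had 54.9, 78.5 and 86.1 CPM at 4 weeks and 59.8 and 43 CPM at 7 days, with overlap (log2 0.51 ± 0.2, edgeR adjusted p = 0.352). Tgfbr2, a TGF-beta receptor, had 15.5, 17.1 and 15.4 CPM at 4 weeks and 42.4 and 35.6 CPM at 7 days (log2 −1.29 ± 0.32, edgeR adjusted p = 0.0762). Both Col5a2 and Tgfbr2 were apart between the times, as were 17.6% of all genes in that direction, and missed the threshold. Rhbdf1, an inactive rhomboid, stood at 5.19, 4.84 and 5.61 CPM at 4 weeks and at 8.97 and 10.1 CPM at 7 days (log2 −0.87 ± 0.19, edgeR adjusted p = 0.0399).

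The remaining calls had no common list. Syt3, a synaptotagmin, rose by 1.93 (± 0.42), with 5.88, 4.61 and 3.81 CPM at 4 weeks and 0.982 and 1.51 CPM at 7 days (edgeR adjusted p = 0.0404). Cfhr3, a complement factor H-related gene with close paralogs, rose by 0.86, the predicted gene Gm45769 by 0.74 and Zmym1, a zinc finger gene, by 1.46. Limd2, a LIM domain protein, fell by 0.95 (± 0.18), with 10.3, 11.6 and 8.83 CPM at 4 weeks and 17.1 and 22.3 CPM at 7 days (edgeR adjusted p = 0.0111). Uap1l1, related to a sugar nucleotide pyrophosphorylase, had 6.67, 3.94 and 5.13 CPM at 4 weeks and 13.3 and 13.6 CPM at 7 days (log2 −1.35 ± 0.28, edgeR adjusted p = 0.0354). Ccdc85b, Slc41a3, H2-T22, Armcx4, Tmem30b, Cpd, Trim11 and Epdr1 also fell, by 0.5 for Tmem30b to 2.48 for Epdr1, which rests on 1 to 8 counts per library at 4 weeks. H2-T22 belongs to a family of near-identical class I genes, which makes its counts uncertain. Ccdc85b, H2-T22, Zmym1 and Syt3 overlap genes on the opposite strand, so their counts share the limit on strand. Syt3 also overlaps Gm45124, and Gm45769 overlaps Smim10l1, on the same strand, which a strand setting would not separate.

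Of higher genes that missed the threshold, Glo1, which detoxifies methylglyoxal, had 938, 957 and 1040 CPM at 4 weeks and 641 and 336 CPM at 7 days (log2 1 ± 0.24, edgeR adjusted p = 0.061). P4ha1, a collagen prolyl hydroxylase subunit, had 14.4, 22.8 and 14.8 CPM at 4 weeks and 6.15 and 5.34 CPM at 7 days (log2 1.59 ± 0.37, edgeR adjusted p = 0.0577). Cdc37l1, Map7, Mrps36, Rpp40 and Ccdc117 completed that set, with log2 fold changes of 0.47, 0.58, 0.72, 0.86 and 0.79.

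Among genes tied to DNA methylation edgeR made no call, while DESeq2 called 1 lower gene of the methylation and heterochromatin machinery. Of 29 tested genes of methylation and heterochromatin machinery 2 were higher and 2 lower at an unadjusted p under 0.05. The shares over all genes were 4.00% and 6.01%. Dnmt3a, a de novo methyltransferase, had 11, 13.8 and 13.4 CPM at 4 weeks and 24.2 and 20.3 CPM at 7 days, without overlap (log2 −0.81 ± 0.19, edgeR adjusted p = 0.061). Tet3, which oxidises methylcytosine, had 11.7, 14.3 and 13.4 CPM at 4 weeks and 20.4 and 20.6 CPM at 7 days (log2 −0.65 ± 0.19, edgeR adjusted p = 0.172). Of 37 germline genes silenced by DNA methylation 14 passed the filter on low counts, 1 was higher at an unadjusted p under 0.05, and their median was −0.02. Bglap3, of the osteocalcin family, had 13.6, 12.6 and 17.2 CPM at 4 weeks and 14.5 and 17.4 CPM at 7 days (log2 −0.13 ± 0.41, edgeR adjusted p = 0.946). Gstp2, a glutathione transferase with a near-identical copy, had 18.4, 18.4 and 41.2 CPM at 4 weeks and 16.1 and 23.3 CPM at 7 days (log2 0.4 ± 0.41, edgeR adjusted p = 0.782). Asns, asparagine synthetase, overlapped too, with 35.1, 17.8 and 39 CPM at 4 weeks and 24.9 and 57.3 CPM at 7 days (log2 −0.42 ± 0.43, edgeR adjusted p = 0.782). Rhox5, Bglap3 and Gstp2 thus showed no difference between the times beyond the spread of their libraries.

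Of 23 imprinted and oncofetal genes 4 were lower at an unadjusted p under 0.05, of 40 interferon-stimulated genes also 4, and of 31 Polycomb genes 1. Over all genes tested 6.01% were lower at that p. Igf2bp3, an oncofetal RNA-binding protein, had 0.513, 0.446 and 0.317 CPM at 4 weeks and 2.16 and 1.44 CPM at 7 days (log2 −2.08 ± 0.6, edgeR adjusted p = 0.156). Usp18, which removes the ISG15 modifier, had 9.58, 5.73 and 10.7 CPM at 4 weeks and 12.9 and 16.6 CPM at 7 days (log2 −0.76 ± 0.29, edgeR adjusted p = 0.345). The times did not overlap for either gene, as for 17.6% of all genes in that direction. The medians of their lists were −0.12 and −0.26.

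Myc, a growth-promoting transcription factor in both the immediate early and ribosome biogenesis lists, rested on 1 library. It had 5.42, 1.79 and 2.8 CPM at 4 weeks and 2.68 and 29.3 CPM at 7 days, and the times overlapped (log2 −2.24 ± 0.58, edgeR adjusted p = 0.0992).

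In WT liver the same interval gave 281 calls (1.99%), 97 higher (0.688%) and 184 lower at 4 weeks (1.31%), from 3 libraries a time. The WT step shares no library with the KO step, though both share the fit's estimate of spread. All 29 KO calls had the same sign in WT, and 16 were called there in the same direction, which is 55.2% of the KO calls and 5.69% of the WT calls. Of the 281 WT calls, 271 had the same sign in KO. Over all genes tested the log2 fold changes of the 2 steps correlated at r = 0.51. A shared sign is thus not particular to the called genes, and its share over all genes is not given here. The median SE of a log2 fold change was 0.23 in KO and 0.2 in WT.

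The test of the difference itself, the KO step minus the WT step, called none of 14090 genes (0%), with edgeR and with DESeq2. At an unadjusted p under 0.05 edgeR had 244 genes (1.73%), and 4 of the 29 KO calls were among them. These were Rhbdf1 (log2 −0.87 in KO and −0.21 in WT, unadjusted p of the difference 0.0139), Tmem30b (−0.5 and −0.13, 0.0207), Zmym1 (1.46 and 0.45, 0.0301) and Dnaic1 (−3.6 and −1.4, 0.0319), each with an edgeR adjusted p of 1. The 29 genes were selected on the KO step, which is part of this difference, so their count here is no separate evidence. The absolute log2 fold change was larger in KO for 24 of the 29 KO calls, and larger in WT for 251 of the 281 WT calls. Each set was selected on the step of its own genotype, which favours a larger value there. These 2 counts are therefore no evidence of a difference between the steps. The median SE of the difference was 0.31, and larger differences also went uncalled, such as −0.66 ± 0.25 for Rhbdf1 and −2.2 ± 0.98 for Dnaic1. The lack of calls thus does not show that the steps are equal, also for differences well above that SE. The smallest p-values of the difference were those of Sema4d, a semaphorin, Hcn3, an ion channel, and Fgfbp3, a carrier of fibroblast growth factors. Hcn3 had 5.08, 5.43 and 6.98 CPM in KO at 4 weeks and 3.67 and 3.68 CPM in KO at 7 days, against 3.29, 2.21 and 1.46 CPM in WT at 4 weeks and 4.34, 6.18 and 7.09 CPM in WT at 7 days. It was higher at 4 weeks in KO and lower in WT, but the difference did not pass the threshold (log2 2, unadjusted p = 0.000599).

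**Figure D5:**
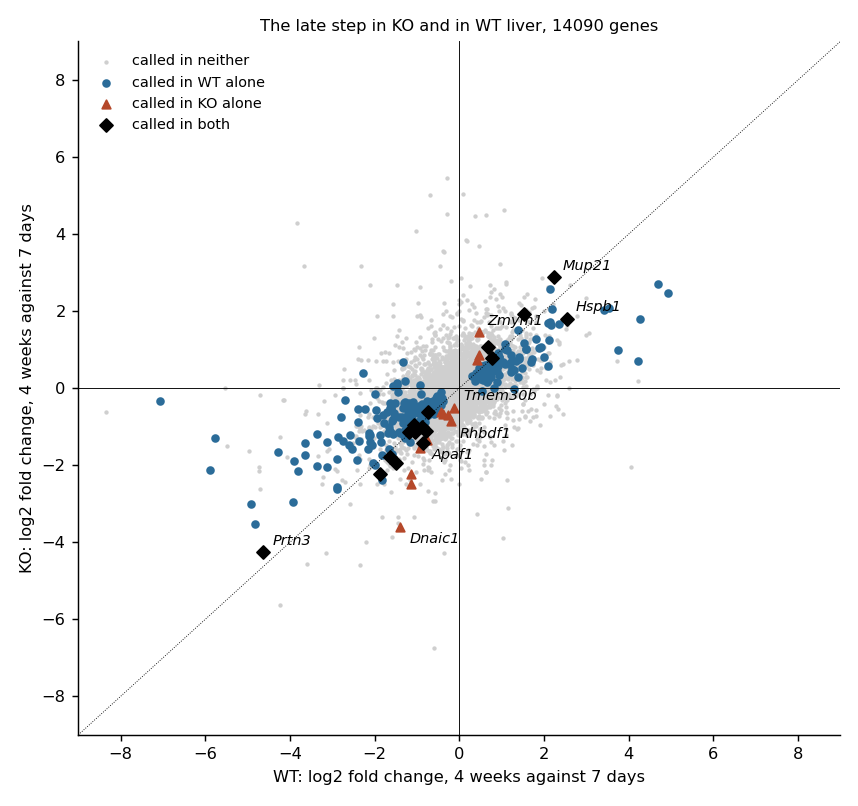
Log2 fold change of 4 weeks against 7 days for each of 14090 genes, KO on the y axis and WT on the x axis, with genes called in KO, in WT or in both marked. The 16 genes called in both, black diamonds, lie near the dotted line of equal change. Genes called in KO alone, triangles, have the same sign in WT.

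The heat shock, acute phase, mitotic and Kupffer cell lists had medians of the same sign in both genotypes. In WT 12 of 21 heat shock genes were higher at an unadjusted p under 0.05, against 7.18% of all genes, with Hspb1 at 17.5, 15.3 and 11.7 CPM at 4 weeks and 2.71, 1.67 and 3.32 CPM at 7 days (log2 2.54, edgeR adjusted p = 0.000107). Acute phase genes had a median of −0.88 in KO and −1.11 in WT, with 1 and 9 calls. Mitotic genes had a median of −0.52 in KO and −1.06 in WT, with 0 and 3 calls, and Kupffer cell markers −0.58 in KO and −1.1 in WT. Of the 20 Kupffer cell markers 15 were lower in WT at an unadjusted p under 0.05, against 9.59% of all genes. None of these list differences between the genotypes was tested as a list.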

How the data were processed

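Poly(A) RNA of mouse liver was sequenced as 100 bp paired-end reads after TruSeq library preparation, per the labels' protocols. The gene counts were deposited by the authors as whole numbers for 19966 Ensembl IDs, with no normalization, and served every main result. FPKM values (fragments scaled to transcript length and library size), deposited by the authors as a second table, were an alternative, tested as log2(FPKM + 0.1) and log2(FPKM + 1). TopHat2 2.1.0, HTSeq, Cufflinks 2.2.1, DESeq2, Trimmomatic and FastQC 0.11.5 are named with mm10, per the submitters' processing notes. Strand setting and annotation: not given in the sources used here. KO replicate 2 of 7 days was not analysed here.

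edgeR 4.0.16 (R 4.3.3, filterByExpr, TMM, glmQLFit robust, glmQLFTest) was fitted to all 45 libraries with 1 mean for each of 16 groups. This tested 14090 genes with 29 residual degrees of freedom, and p-values were adjusted by Benjamini-Hochberg. CPM values are TMM-scaled, log2 fold changes are 4 weeks over 7 days with their SE, and fold changes of low genes depend on the prior count. DESeq2 1.42.0 and limma 3.58.1 served as alternatives. The scripts were tested on simulated data. The count of reads sets the precision of each value, and no interval covers more than the spread between libraries. The 96 h libraries, which go against their labels in earlier results, share the estimate of spread. Replicates of a group differed by more than sampling noise.

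The members and the 41 gene lists (950 symbols, 867 tested) were chosen with earlier results of these data known. Named genes are Uhrf1, Rhox5, Bglap3, Gstp2, Asns and Col5a2. To these come up to 12 calls in each direction, by size, among genes whose times do not overlap and whose mean reaches 1 on the log2 CPM scale (filled up by smallest p), the 3 smallest p of the difference, and each list's called or smallest-p members. Further members of lists that hold a call, Crp, Clec4f, Dcn, Eda2r, Elovl3 and the remaining calls were named after their values were seen. Positions come from GENCODE vM21 (GRCm38), promoters from RefSeq (GRCm38.p6).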

Additional observations from a re-analysis of the deposited data

How the results depend on the processing

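The KO step called 29 genes and depended on the processing: 90 with DESeq2, 99 (53 higher and 46 lower) when the fit held only the groups compared, 14 without a filter on low counts and 7 without the 96 h libraries. With another scaling, a filter at 1 CPM, or limma on FPKM, counts lay between 20 and 31. Leaving out 1 library gave 1 to 17. The same settings gave 583 calls in the WT step with DESeq2 and 453 without the 96 h libraries, against 281, and leaving out 1 library gave 32 to 511. The difference of the steps called 0 genes under all alternatives run. The cause was not tested.

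Same-numbered KO libraries deviated with correlations of −0.086 and −0.154, which say little with 2 libraries at 7 days, and WT libraries with 0.113, −0.04 and 0.025, so the numbers were not taken as pairs. With the replicate block the KO step had 17 calls in the fit of all libraries and 18 in the fit of the 7 day and 4 week libraries, the WT step 257 and 293. Of the 29 genes, 17 and 2 kept their call in these fits.

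The medians of the heat shock, acute phase and mitotic lists kept their sign under all 16 alternatives, while cholesterol synthesis and several lists with medians near 0 did not. Depth limits genes under about 1 CPM, such as Epdr1, Gtse1 and Uhrf1, to a few counts per library.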
